A study of Mus musculus with 48 samples.

Results

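The genes described here are 8 protein-coding genes, *Nphs1*, *Gng3*, *Gna14*, *Unc13d*, *Msln*, *Trh*, *Serpina3i* and *Stk26*, out of the 55335 genes of the expression tables. They were picked as leading decreases of the comparisons of mouse embryonic stem cells (mESCs) that lacked NRDE2 or CCDC174, or carried a mutant NRDE2, with their controls. The picking used measured values, so the levels of these genes in every NRDE2 and CCDC174 comparison, ribosome profiling included, are given as a description. Calls made there apply the thresholds given below to values that picked the genes, so they are labels and not evidence. Which of those comparisons brought in which gene was not recorded. The knockout of *Mtrex* was not used to pick them, and is the comparison in which they were tested. All 8 genes were found in the RNA-seq and the Ribo-seq table.

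All cells were male mESCs of hybrid 129-C57BL/6 background, grown with serum, LIF and 2 kinase inhibitors, and derived from a parental line that carries a tamoxifen-inducible Cre-ERT2 recombinase. Each group had 2 replicate libraries. In the first *Nrde2* experiment, conditional knockout cells were treated with 4-hydroxytamoxifen (4OHT, 100 nM for 4 days) to delete *Nrde2* (*Nrde2*-KO) and compared with untreated cells (WT). The same WT libraries were the control of *Nrde2*Δ*200* cells, in which the first 200 amino acids of NRDE2 were removed, and of *Nrde2-D174R* cells, which carry 1 amino acid substitution. These 3 comparisons therefore are not independent of each other. In the second experiment *Nrde2*-KO and WT cells were analysed without and with cycloheximide (CHX, 0.1 mg/ml for 4 hours), a blocker of translation elongation that also stops nonsense-mediated decay, which removes mRNAs with premature stop codons. CCDC174 was removed from cells whose endogenous protein is fused to the FKBP12F36V degron by dTAG-13 (500 nM for 24 hours, *Ccdc174-dTAG*), and their controls were the untreated fusion cells (*Ccdc174*-WT), again without and with CHX. *Mtrex*-KO cells had received 100 nM 4OHT for 3 days and were set against untreated *Mtrex*-WT cells. Ribosome footprints were sequenced from *Nrde2*-KO and WT cells. The edited lines were picked clones, and nothing states whether replicates came from separate cultures, so p-values measure only the spread between these libraries.

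NRDE2 and CCDC174 are nuclear proteins that bind near 5′ splice sites (5′SSs), the exon-intron junctions that U1 small nuclear RNA recognises by base pairing. MTREX is the RNA helicase that hands nuclear transcripts to the RNA exosome for decay, and NRDE2 is one of its known partners. The study reports less NRDE2 protein after *Mtrex* knockout, and less of the D174R protein than of wild-type NRDE2. *Mtrex*-KO is therefore not a loss of MTREX with NRDE2 unchanged. A transcript that is not spliced correctly can be kept in the nucleus and degraded, or reach the cytoplasm with a premature stop codon and be removed there by nonsense-mediated decay. The 8 genes share no pathway by name. *Gng3* and *Gna14* encode subunits of heterotrimeric G proteins, *Nphs1* and *Msln* encode cell surface proteins of specialised epithelia, *Unc13d* and *Trh* belong to regulated secretion, *Serpina3i* encodes a serine protease inhibitor of a large mouse family, and *Stk26* encodes a protein kinase.

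Because the study was about 5′SSs, the sequence around an annotated 5′SS with the fewest U1 pairs in each gene is shown before the values. *Gng3* has 1 such site, whereas in *Nphs1* and *Stk26* 3 sites are tied and in each of the other genes 2, and the first of them in transcript order is shown. Each line holds 30 bases of the GRCm38 (mm10) genome on the strand of the gene, with 12 exon bases first and 18 intron bases after them. The capitals mark the last 3 exon bases and the first 6 intron bases, the 9 positions that lie opposite bases 3 to 11 of U1. A site that pairs at all 9 positions reads CAGGTAAGT, as taken from the U1 gene *Rnu1a1*.
Nphs1, intron 12 of 29, chr7:30465641-30465670: tggtggtgcAGTGTGAGCgcacaggcccag
Gng3, intron 2 of 2, chr19:8838536-8838565: tgccggataAAGGTGGGTgcgaccctggct
Gna14, intron 2 of 6, chr19:16533886-16533915: gagcagaatAAGGTACTGtacttgagaggg
Unc13d, intron 17 of 32, chr11:116069869-116069898: catcagcccATGGTACAGgtagattctgaa
Msln, intron 1 of 16, chr17:25754325-25754354: acactactgCAGGTGCTCacagaagttgga
Trh, intron 1 of 2, chr6:92244530-92244559: tccaccttgCAGGTAATGcctctgacctgg
Serpina3i, intron 2 of 5, chr12:104264424-104264453: ttttgagctAAGGTATAAactaccaggtgg
Stk26, intron 5 of 11, chrX:50885686-50885715: gagacattaAAGGTATACaaaagtcaaaca

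The *Nphs1* and *Unc13d* sites pair at 4 of the 9 positions. Those of *Gna14*, *Msln*, *Serpina3i* and *Stk26* pair at 5, that of *Gng3* at 6 and that of *Trh* at 7, when only Watson-Crick pairs are counted. Genes with more introns have more chances to hold a weak site, so each was set against the genes with the same number of introns that start with GT. Of those with 28 such introns, as in *Nphs1*, 36.9% had a site at least as weak, and for *Unc13d* with its 32 introns the share was 32.6%. The shares were 54.2% for *Serpina3i*, 61.9% for *Gna14*, 76.8% for *Gng3*, 84.3% for *Stk26*, 91.1% for *Msln* and 97.6% for *Trh*. None of the 8 genes thus had a weakest site that was rare for its number of introns.

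Over all introns of the 8 genes that start with GT, 25 of 102 (24.5%) paired at 5 positions or fewer, beside 16.4% of the 145160 such introns of 13359 expressed genes, and the median was 6 positions in both. *Nphs1* and *Unc13d* held most of these, with 9 of 28 and 7 of 32 introns. *Stk26* had 3 of 11, *Msln* 2 of 16, *Gna14* 2 of 6 and *Serpina3i* 2 of 5. *Gng3* and *Trh*, with 2 introns each, had none. These counts describe the annotated sites and say nothing about which of them was used in these cells.

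**Figure D1:**
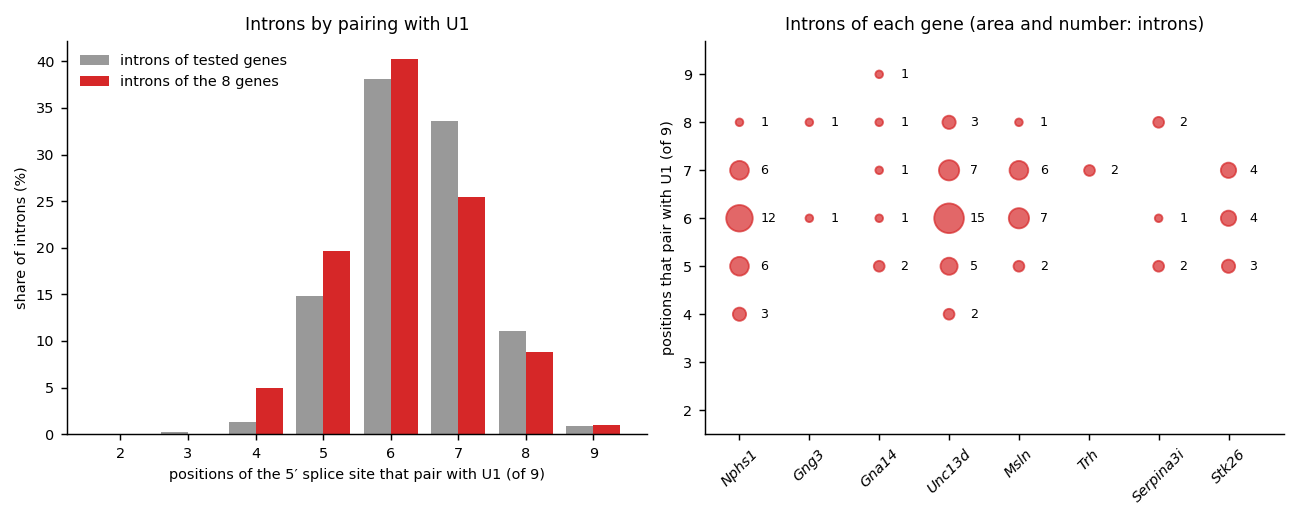
Left, share of introns (%) by the number of the 9 5′SS positions that pair with U1, for the 145160 introns of tested genes (gray) and the 102 introns of the 8 genes (red). Right, the introns of each gene by the same number, with circle area and figures giving the number of introns: only Nphs1 and Unc13d hold sites at 4 positions, and both Trh introns lie at 7.

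Depth set limits for *Gna14* and *Serpina3i*, which were close to absent without CHX, and for footprints, which were few for all members but *Trh*. RNA-seq libraries held 28683644 to 36272309 reads in genes and Ribo-seq libraries 3475051 to 5035940, so that 1 read was worth 0.0238 to 0.0304 and 0.123 to 0.177 CPM (reads of a gene scaled to the total of the library). Levels below are CPM divided by a median-of-ratios factor for each library (normalized CPM), and differences are log2 fold changes fitted by limma. A gene was called lower or higher with an adjusted p under 0.01 and a log2 fold change beyond 1 in size. The targeted genes followed the labels without CHX, with *Nrde2* at 19.7 ± 0.81 normalized CPM (SD, n = 2) in *Nrde2*-KO beside 40.8 ± 0.74 in WT, and *Mtrex* at 43.8 in *Mtrex*-KO beside 115 in its WT. *Mtrex*-WT already held less *Mtrex* than the other controls without CHX, at 210 and 250 in WT of the *Nrde2* experiments and 195 in *Ccdc174*-WT. With CHX, *Nrde2* reads over the whole gene stood at 249 to 257 in *Nrde2*-KO and 224 to 242 in WT, so the level of *Nrde2* does not check those labels. *Ccdc174* mRNA was not lower in *Ccdc174-dTAG* (36.6 beside 28.2), where the degron removes the protein and not the mRNA. The 12 embryonic stem cell markers were present in every library with a summed level of 3491 to 6684, and those of fibroblasts summed to 4.63 at most.

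*Nrde2* loss and CCDC174 loss were accompanied by lower levels of the same 5 genes without CHX, namely *Nphs1*, *Gng3*, *Unc13d*, *Msln* and *Trh*. *Gna14* and *Serpina3i* were too low to test there and were lower with CHX in both depletions, while *Stk26* differed in the 2 NRDE2 mutants and not in the knockout. In the first *Nrde2*-KO experiment 5 of the 6 tested members were called lower, where 1.98% of the 14889 tested genes were. The second experiment gave 5 of 6 (2.42% of all genes), *Nrde2*Δ*200* 5 of 6 (1.07%), *Nrde2-D174R* 2 of 6 (*Nphs1* and *Stk26*, 0.0604%) and *Ccdc174-dTAG* 5 of 6 (1.16%). With CHX, 7 of 8 members were called lower in *Nrde2*-KO (1.73% of 15476 genes) and 7 of 8 in *Ccdc174-dTAG* (0.704%), of which *Msln*, *Gna14*, *Trh* and *Serpina3i* were no longer called with no filter on low levels. The Ribo-seq comparison gave 5 of 6 (2.8% of 13857 genes). The *Nrde2-D174R* call of *Nphs1* was lost without any 1 of the 4 libraries, and that of *Stk26* without replicate 2 of either group. Since the members were picked from these comparisons, nothing is read from the counts, the calls or the agreement between the depletions.

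**Figure D2:**
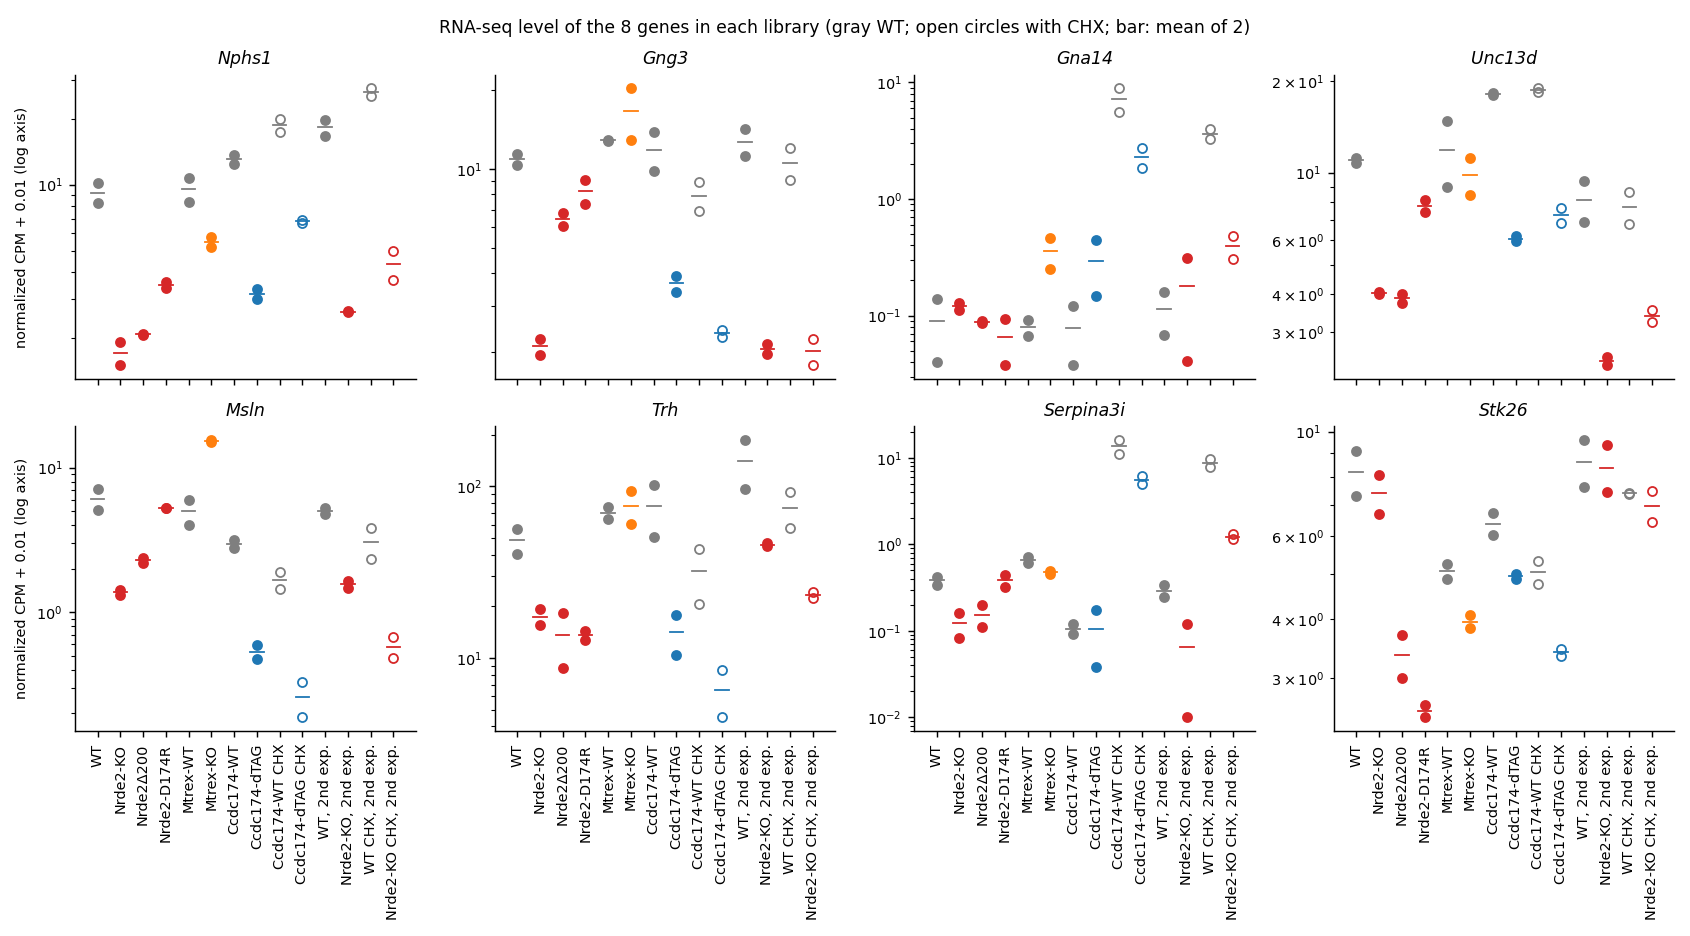
Normalized CPM plus 0.01 on a log axis (a different range in each panel) for each of the 8 genes in every library of the 14 RNA-seq groups, as points for the 2 libraries and a bar for their mean, with gray for controls, red for NRDE2, blue for CCDC174, orange for Mtrex-KO and open circles for CHX. Nphs1, Gng3, Unc13d, Msln and Trh sit lower in the Nrde2-KO and Ccdc174-dTAG groups than in their controls. Gna14 and Serpina3i are higher with CHX, but for Gna14 in Nrde2-KO, where libraries with and without CHX overlap.

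*Nphs1* (ENSMUSG00000006649, chr7:30458315-30487223, plus strand) encodes nephrin, an adhesion protein of the immunoglobulin superfamily that forms the slit diaphragm between kidney podocytes. It was at 10.2 and 8.21 normalized CPM in the WT libraries of the first experiment and at 1.49 and 1.91 in *Nrde2*-KO, a log2 fold change of −2.28 (SE 0.17). In the second experiment WT libraries held 16.7 and 19.7 and *Nrde2*-KO libraries 2.64 and 2.63 (−2.67), the largest decrease of all tested genes there. The KO libraries lay far under the WT libraries each time, at 18.5% and 14.5% of the WT mean. *Nphs1* was also low in both mutants, where *Nrde2*Δ*200* libraries held 2.09 and 2.06 and *Nrde2-D174R* libraries 3.36 and 3.59. The order from *Nrde2*-KO through *Nrde2*Δ*200* and *Nrde2-D174R* to WT thus had no overlap between neighbouring groups, although the knockout and the truncation lay close together. CCDC174 loss took *Nphs1* from 12.4 and 13.7 to 3.32 and 3.02 normalized CPM (log2 fold change −1.96), and in this case too the groups were apart. With CHX the control levels were higher, and the knockout and depleted cells remained under them. They were 25.5 and 27.4 in WT against 4.99 and 3.66 in *Nrde2*-KO, and 17.4 and 19.97 in *Ccdc174*-WT against 6.66 and 6.92 in *Ccdc174-dTAG*.

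*Msln* (ENSMUSG00000063011, chr17:25748613-25754378, minus strand) encodes mesothelin, a surface glycoprotein of mesothelial cells. Its level was 7.05 and 5.06 normalized CPM in WT and 1.42 and 1.31 in *Nrde2*-KO, and 5.25 and 4.76 against 1.65 and 1.47 in the second experiment. The log2 fold changes were −1.95 and −1.54. *Nrde2*Δ*200* libraries were as clearly lower, at 2.37 and 2.19. In *Nrde2-D174R* the values of 5.28 and 5.25 lay between those of the 2 WT libraries, and no difference could be seen. *Ccdc174*-WT cells held less *Msln* than the other controls, 2.76 and 3.13, and the depleted cells 0.582 and 0.462 (log2 fold change −2.05). The order was the same with CHX, where *Msln* went from 3.83 and 2.32 in WT to 0.664 and 0.474 in *Nrde2*-KO, and from 1.45 and 1.89 in *Ccdc174*-WT to 0.178 and 0.322 in *Ccdc174-dTAG*. The last 2 values rest on 8 and 14 reads.

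*Gng3* (ENSMUSG00000071658, chr19:8836933-8839194, minus strand) encodes the G protein subunit gamma 3, which pairs with a beta subunit at the membrane and is best known from neurons. Its normalized CPM lay between 10.3 and 14.2 in the 4 WT libraries of the *Nrde2* experiments and between 1.95 and 2.24 in the 4 *Nrde2*-KO libraries. The log2 fold changes were −2.25 (SE 0.20) and −2.48, which ranked sixth and second among the decreases of all tested genes. The mutants lay between WT and the knockout, with 6.78 and 6.06 in the truncation, and with 7.33 and 9.09 in the point mutant. In *Ccdc174*-WT the libraries held 13.8 and 9.78 and in *Ccdc174-dTAG* 3.91 and 3.40 (−1.61). With CHX the values were 9.05 and 12.02 against 1.77 and 2.24 for *Nrde2*, and 8.89 and 6.92 against 2.43 and 2.28 for CCDC174. No library of a control group overlapped with one of its knockout, mutant or depleted group.

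*Unc13d* (ENSMUSG00000057948, chr11:116062095-116077961, minus strand) encodes Munc13-4, which primes secretory granules for fusion in cytotoxic lymphocytes and other cells. WT libraries held 10.8 and 11.2 normalized CPM, *Nrde2*-KO 4.07 and 4.01 and *Nrde2*Δ*200* 3.74 and 4.01, so that the knockout and the truncation could not be told apart. *Nrde2-D174R* lay between them and WT, at 7.41 and 8.11. The second experiment gave 9.39 and 6.89 in WT and 2.33 and 2.49 in *Nrde2*-KO. The 2 log2 fold changes in *Nrde2*-KO were −1.39 (SE 0.19) and −1.64. CCDC174 loss was accompanied by a change from 17.98 and 18.3 to 6.18 and 5.98 (−1.54). With CHX the differences were −1.12 in *Nrde2*-KO, from 8.66 and 6.81 to 3.54 and 3.24, and −1.33 in *Ccdc174-dTAG*, from 18.9 and 18.4 to 7.64 and 6.85. The call in *Nrde2*-KO with CHX was lost without WT CHX replicate 1.

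*Trh* (ENSMUSG00000005892, chr6:92242061-92244650, minus strand) encodes the precursor of thyrotropin-releasing hormone. It varied more between replicates than the other genes. WT libraries of the first experiment held 40.4 and 56.5 normalized CPM and *Nrde2*-KO 15.6 and 19.2, and those of the second 96.1 and 186 against 44.7 and 47.1. The log2 fold changes were −1.45 (SE 0.36) and −1.54. Controls and knockouts did not overlap, but the call in the first experiment was lost when any 1 of its libraries was left out, and that of the second without WT replicate 2 or either *Nrde2*-KO replicate. *Nrde2*Δ*200* libraries stood at 18.3 and 8.73 and *Nrde2-D174R* libraries at 14.3 and 12.8, in the range of the knockout or under it. In *Ccdc174-dTAG* *Trh* had the largest decrease of all tested genes, −2.38 without CHX (103 and 50.9 to 17.8 and 10.5) and −2.23 with CHX (43.4 and 20.7 to 8.46 and 4.50). Its call without CHX was also lost without *Ccdc174*-WT replicate 1 or *Ccdc174-dTAG* replicate 2, and that with CHX without *Ccdc174-dTAG* CHX replicate 2. In *Nrde2*-KO with CHX *Trh* held 22.3 and 24.4 against 57.3 and 93.4 in WT (−1.64), a call that was lost without WT CHX replicate 2 or either *Nrde2*-KO CHX replicate. In the truncation the call was lost without WT replicate 2 or *Nrde2*Δ*200* replicate 2.

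**Figure D3:**
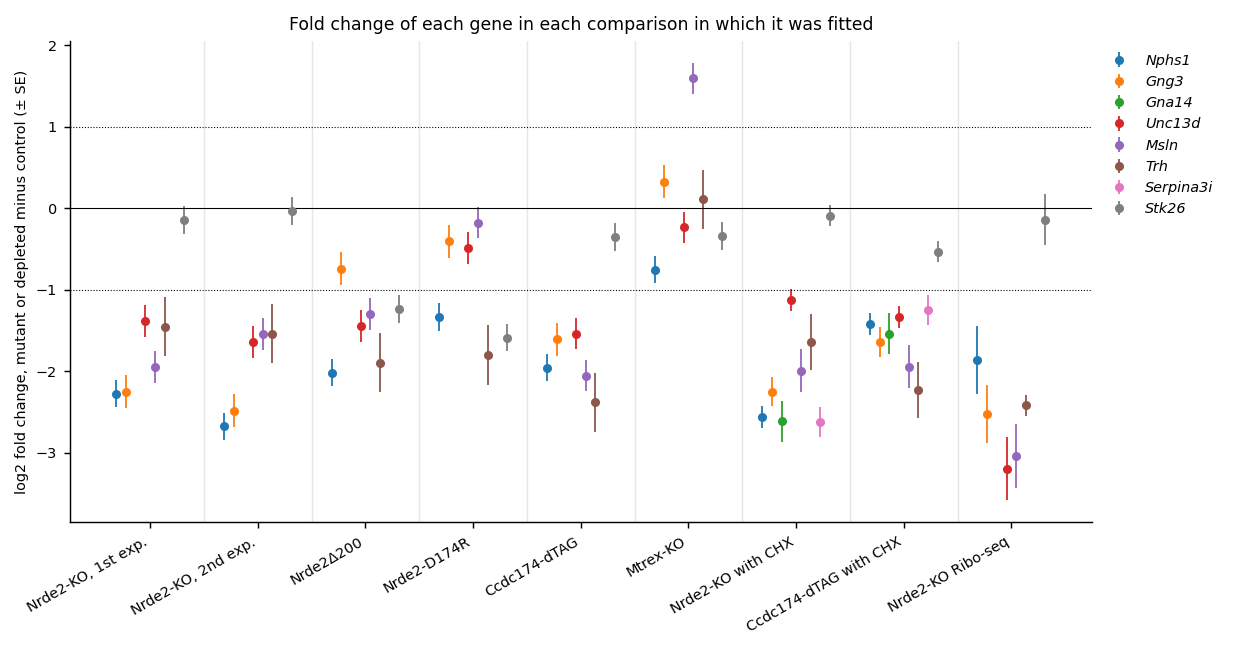
Log2 fold change with its standard error (vertical axis) of each gene that passed the filter on low levels (colours) in the 9 comparisons (horizontal axis), with dotted lines at 1 and −1. All estimates of Nphs1, Gng3, Unc13d, Msln and Trh in the NRDE2 and CCDC174 comparisons lie under 0, whereas Msln lies at 1.59 in Mtrex-KO.

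*Gna14* (ENSMUSG00000024697, chr19:16435762-16610820, plus strand), a G protein alpha subunit of the Gq class, was nearly undetected without CHX, with 1 to 16 reads in every library. In CHX it reached 3.97 and 3.26 normalized CPM in WT (166 and 135 reads) and 5.52 and 8.88 in *Ccdc174*-WT (248 and 399 reads). CHX-treated *Nrde2*-KO cells held 0.295 and 0.474 (12 and 19 reads), which is 10.6% of WT and a log2 fold change of −2.62 (SE 0.26). In *Ccdc174-dTAG* with CHX it stood at 1.85 and 2.73, a log2 fold change of −1.54. Both groups lay under their controls, and the knockout further than the CCDC174-depleted cells.

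*Serpina3i* (ENSMUSG00000079014, chr12:104263122-104269372, plus strand) behaved alike. No library without CHX held more than 26 of its reads. With CHX, WT libraries reached 9.67 and 7.87 normalized CPM and *Ccdc174*-WT libraries 11.2 and 16.0. *Nrde2*-KO cells under CHX held 1.13 and 1.30, 13.8% of WT, and *Ccdc174-dTAG* cells 4.94 and 6.11, 40.6% of their control. The log2 fold changes were −2.62 (SE 0.19), the largest decrease of all genes tested with CHX in *Nrde2*-KO, and −1.25. The Serpina3 genes arose by duplication and are close to identical in parts, and only uniquely mapped reads were counted, so that the level of *Serpina3i* is uncertain. The calls of *Gna14* and *Serpina3i* in *Ccdc174-dTAG* were lost without *Ccdc174*-WT CHX replicate 2 or *Ccdc174-dTAG* CHX replicate 1.

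The members differed in their response to CHX itself. In WT cells of the *Nrde2* experiment the fitted log2 difference with CHX, which has 0.25 added to each level, was 3.45 for *Gna14* and 4.08 for *Serpina3i*, the 31st and the 15th largest of 15133 genes. In *Ccdc174*-WT these differences were 4.52 and 5.30. *Gna14* differed by 0.67 in *Nrde2*-KO and 2.28 in *Ccdc174-dTAG*, and *Serpina3i* by 2.28 and 4.09. Without CHX the 4 groups held 5 to 21 reads of *Gna14* and 4 to 19 of *Serpina3i*, summed over 2 libraries, so that the size of a response is uncertain and no difference between the groups is read from it. *Nphs1* was moderately higher with CHX in all 4 backgrounds, with log2 differences of 0.51 to 1.04. *Trh* was lower, by 0.87 to 1.26 on the log2 scale, and so was *Msln*, by 0.64 to 1.15. *Gng3*, *Unc13d* and *Stk26* moved by 0.58 or less. None of these responses was tested.

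*Stk26* (ENSMUSG00000031112, chrX:50841047-50893097, plus strand) encodes MST4, a kinase of the germinal centre kinase III subfamily that works with the STRIPAK phosphatase complex. It did not follow the others. Its normalized CPM was 7.29 and 9.09 in WT and 6.68 and 8.09 in *Nrde2*-KO, which overlap, and the second experiment gave 7.61 and 9.58 against 7.42 and 9.35. In the 2 mutants it was clearly lower, at 3.69 and 2.99 in the truncation and at 2.62 and 2.47 in the point mutant, which are 40.8% and 31.1% of WT. The log2 fold changes were −1.23 and −1.59. *Ccdc174-dTAG* cells differed little from their controls, with 4.99 and 4.86 against 6.70 and 6.02 (77.4%). With CHX the difference of −0.53 in *Ccdc174-dTAG* was somewhat larger, and −0.09 was found in *Nrde2*-KO. The genes most like *Stk26* over the means of the 14 RNA-seq groups were *Tspan7* (Pearson r = 0.92) and *Maoa* (r = 0.85), both also on chromosome X. Their log2 differences were −0.61 and −1.58 in the truncation and −0.81 and −0.87 in the point mutant. Both mutants are among the 14 groups that chose these genes, so nothing is read from these differences. The mutant lines are clones other than the WT line, and a difference between clones and one due to the mutation cannot be told apart here.

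Markers of 2-cell-like cells, a rare state of mESC cultures that expresses genes of the early embryo, moved with several of these comparisons, and some markers of other early lineages did too. Their sum over 7 genes was 2.12 to 3.19 normalized CPM in WT and 20.8 to 29.7 in *Nrde2*-KO of the first experiment, where 6 of the 7 were called higher, and 5.95 to 6.35 against 83.2 to 85.9 in the second, where 7 of 7 were. With CHX it was 4.54 to 4.83 against 45.5 to 49.8, with 5 of 5 tested markers called higher, and in *Nrde2*Δ*200* 14.5 to 19.1, with 3 of 7. In *Ccdc174-dTAG* it was 2.83 to 7.28 beside 2.85 to 5.08 in the control, and in *Nrde2-D174R* 1.80 to 3.28, with 0 of 7 called by limma in each. No marker was at 0 in all libraries of any of these groups. Over all tested genes the shares called higher were 3.02% and 2.4% in the 2 *Nrde2*-KO experiments without CHX and 2.82% with CHX, 1.58% in the truncation, 0.154% in the point mutant, 0.228% and 0.207% in CCDC174-depleted cells without and with CHX, and 3.62% in Ribo-seq. Of the primitive endoderm markers, *Gata6* (log2 fold changes 1.78 and 2.18) and *Dab2* (1.05 and 1.43) rose in both *Nrde2*-KO experiments, 2 of 5 tested. The sum of all 7 was 13.6 in both WT libraries and 21.7 to 24.3 in *Nrde2*-KO of the first experiment, and 9.73 to 11.3 against 16.6 to 19.997 in the second. Of the trophectoderm markers, *Cdx2* and *Gata3* rose in both, 2 of 6 tested, while their sum of 105 to 109 in WT and 87.95 to 92.8 in *Nrde2*-KO of the first experiment was not higher. The embryonic stem cell markers summed to 5993 to 6261 in WT and 4678 to 5005 in *Nrde2*-KO of that experiment, with 0 of 12 called by limma, and to 6118 to 6281 and 5475 to 5687 in the second, with 1 of 12 called lower. The part of such cells in the levels of the members was not tested. In bulk RNA fewer cells of a type and less RNA per cell cannot be told apart.

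Ribosome footprints on these genes were also fewer in *Nrde2*-KO. *Trh* had the most, with 53.7 and 52.6 normalized CPM in WT (413 and 396 reads) and 10.7 and 8.81 in *Nrde2*-KO (60 and 68 reads), a log2 fold change of −2.42 (SE 0.12). *Msln* went from 6.24 and 5.85 to 0.895 and 0.259, and *Unc13d* from 4.42 and 5.32 to 0.358 and 0.259. These were the fourth and the third largest decreases of all genes tested in Ribo-seq, at 9.55% and 6.34% of WT, and they rest on 7 and 4 footprint reads in *Nrde2*-KO. *Gng3* footprints were at 4.68 and 4.52 in WT and 0.537 and 0.648 in *Nrde2*-KO (−2.53), and those of *Nphs1* at 2.47 and 2.79 against 0.358 and 0.778 (−1.86), a call that was lost without WT Ribo-seq replicate 2. No KO library overlapped with a WT library for these 5 genes. *Stk26* footprints overlapped between the groups, with 2.99 and 2.66 in WT and 2.15 and 2.98 in *Nrde2*-KO. *Gna14* had 2 footprint reads in WT and 4 in *Nrde2*-KO, and *Serpina3i* 1 and 0, too few to compare.

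Set beside the mRNA of the first experiment, the log2 fold change of footprints differed from that of mRNA by −1.81 for *Unc13d*, −1.09 for *Msln*, −0.97 for *Trh*, −0.28 for *Gng3*, 0.41 for *Nphs1* and 0.00 for *Stk26*. Against the mRNA of the second experiment these values were −1.55, −1.50, −0.88, −0.05, 0.81 and −0.11. The gap of *Gng3* thus nearly vanished and that of *Nphs1* was larger. The footprints and the RNA came from separate libraries with different scaling, and the differences were not tested. The few footprint reads of *Unc13d*, *Msln*, *Gng3* and *Nphs1* in *Nrde2*-KO (4, 7, 8 and 8) leave the size of their gaps open to counting error.

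**Figure D4:**
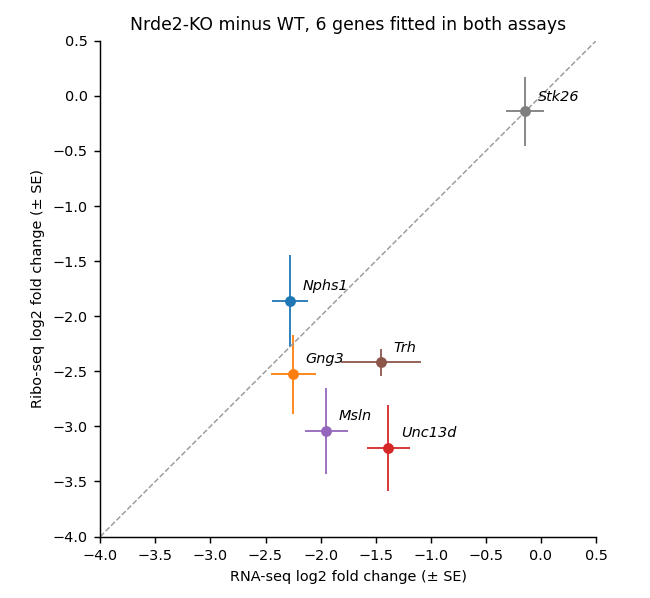
Log2 fold change of ribosome footprints (vertical axis) against that of mRNA in the first Nrde2-KO experiment (horizontal axis) for the 6 genes fitted in both, with standard errors and a dashed line of equality. Unc13d, Msln and Trh lie furthest under the line, and Stk26 lies near 0 on both axes.

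In *Mtrex*-KO, which was not used to pick the genes, the 6 tested members did not move together. By limma with Benjamini-Hochberg adjustment over 14889 genes, 0 of the 6 were called lower and 1 was called higher, where 10.9% of all tested genes were called lower and 15.8% higher. *Msln* rose from 4.00 and 5.98 normalized CPM in *Mtrex*-WT to 15.0 and 15.5 in *Mtrex*-KO, a 3.06-fold higher mean and a log2 fold change of 1.59 (SE 0.19, limma adjusted p = 1.38e-06). Both knockout libraries lay far above both controls. *Nphs1* stood at 8.32 and 10.7 in *Mtrex*-WT and 5.20 and 5.80 in *Mtrex*-KO, a log2 fold change of −0.76 (SE 0.17, limma adjusted p = 0.000673). Its groups did not overlap and the adjusted p was under 0.01, but the size did not reach the fold threshold. With CPM as deposited, where the 14889 tested genes had a median of −0.38 on the log2 scale, *Nphs1* stood at −1.13 and was called lower, and *Msln* at 1.20 was still called higher.

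The other 4 did not pass the test in *Mtrex*-KO. *Gng3* was at 12.9 and 12.8 in *Mtrex*-WT and 12.9 and 20.3 in *Mtrex*-KO (log2 fold change 0.33, SE 0.20, limma adjusted p = 0.164). *Unc13d* was at 8.97 and 14.7 against 8.46 and 11.2 (−0.24, SE 0.19, limma adjusted p = 0.292), and *Trh* at 64.9 and 75.6 against 60.1 and 94.7 (0.11, SE 0.36, limma adjusted p = 0.809). For all 3 the spread within a group was as wide as the difference between groups, and with 2 libraries a group a moderate change would be missed. *Stk26* was lower in both knockout libraries, 3.82 and 4.07 beside 5.22 and 4.87, but its log2 fold change of −0.34 (SE 0.17) had a limma adjusted p of 0.0905. *Gna14* had 7 and 13 reads in *Mtrex*-KO and 3 and 2 in *Mtrex*-WT, and *Serpina3i* 14 and 13 against 26 and 21. Whether the *Mtrex*-KO effects differ from the *Nrde2*-KO effects was not tested, since the latter chose the genes.

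Other mesothelial and trophectoderm genes moved in *Mtrex*-KO beside *Msln*, where 15.8% of all tested genes were called higher and 10.9% lower. Of the 5 mesothelial markers 3 were tested, of which *Krt19*, a keratin of simple epithelia (log2 fold change 5.43), and *Lrrn4* (1.44) rose and *Upk3b* fell by 1.31 on the log2 scale. Their summed level was 4.16 to 5.95 normalized CPM in *Mtrex*-WT and 67.1 to 81.8 in *Mtrex*-KO, with no marker at 0, and most of it was *Krt19*. The trophectoderm markers summed to 87.3 to 121 and 498 to 512, with 4 of 6 tested called higher. The 2-cell-like markers summed to 4.30 to 13.7 and 94.9 to 257, with 7 of 7 called higher. The part of such cells in the level of *Msln* was not tested.

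Genes next to or overlapping the members were examined next, since they share the chromosomal surroundings but were not picked. *Kirrel2*, which encodes a nephrin-like adhesion protein, lies 625 bases from *Nphs1* on the opposite strand. It went from 3.01 and 4.11 normalized CPM in WT to 1.11 and 0.979 in *Nrde2*-KO (log2 fold change −1.54, limma adjusted p = 0.000375) and from 4.78 and 6.35 to 1.93 and 1.41 in the second experiment (−1.60, limma adjusted p = 0.00025). *Kirrel2* was called lower in 6 of the 9 comparisons, 1 of them Ribo-seq, where the call was lost with no filter and with DESeq2. These were both *Nrde2*-KO experiments, *Nrde2*-KO with CHX (−1.67), *Ccdc174-dTAG* without and with CHX (−1.41 and −1.26) and Ribo-seq (−1.82), where footprints went from 4.03 and 4.12 to 0.716 and 1.30. In *Nrde2*Δ*200* (−1.04), *Nrde2-D174R* (−0.59) and *Mtrex*-KO (−0.63) it was not called. The *Ccdc174-dTAG* call without CHX was lost without *Ccdc174*-WT replicate 1 or *Ccdc174-dTAG* replicate 2. *Nphs1os*, a noncoding gene antisense to *Nphs1*, was called in no comparison. Its log2 fold changes were −0.32 and −0.95 in the *Nrde2*-KO experiments, −1.14 with CHX (limma adjusted p = 0.014), −0.92 in *Ccdc174-dTAG* (limma adjusted p = 0.044) and −1.06 there with CHX (limma adjusted p = 0.038). Reads were counted by strand, so that *Nphs1* and its antisense partner are separate.

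*Gna14* and *Serpina3i* also had a neighbour that fell in *Nrde2*-KO with CHX. *AC126031.1*, a processed pseudogene on the opposite strand within *Gna14*, went from 0.718 and 0.893 to 0.0983 and 0.0499 normalized CPM, the latter 4 and 2 reads (log2 fold change −1.70, limma adjusted p = 0.00055). *Serpina3h*, a transcribed pseudogene 9453 bases from *Serpina3i*, went from 0.718 and 0.965 to 0.123 and 0.224 (−1.37, limma adjusted p = 0.0013). Both are low genes, with means of 0.0741 and 0.174 in *Nrde2*-KO with CHX. They passed the filter on low levels through the other CHX groups, chiefly the controls, so nothing is read from their calls. The level of *Serpina3h* is as uncertain as that of *Serpina3i*, and its call was lost without WT CHX replicate 2 or *Nrde2*-KO CHX replicate 1. Neither was called in *Ccdc174-dTAG* with CHX, although *AC126031.1* was without *Ccdc174*-WT CHX replicate 1. The tested neighbours of *Gng3*, *Unc13d*, *Msln* and *Trh* were *Bscl2*, *Hnrnpul2*, *Lrrn4cl*, *Unk*, *Wbp2*, *Rpusd1*, *Narfl* and *Rbsn*. None was called lower in an NRDE2 or CCDC174 comparison, where 0.0604% to 2.8% of all tested genes were. With so few neighbours and such shares, no difference between the loci is read from this. *Bscl2*, which overlaps *Gng3* on the opposite strand, rose in *Mtrex*-KO (1.45, limma adjusted p = 3.9e-09). *Stk26* had no tested gene within 100 kb.

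**Figure D5:**
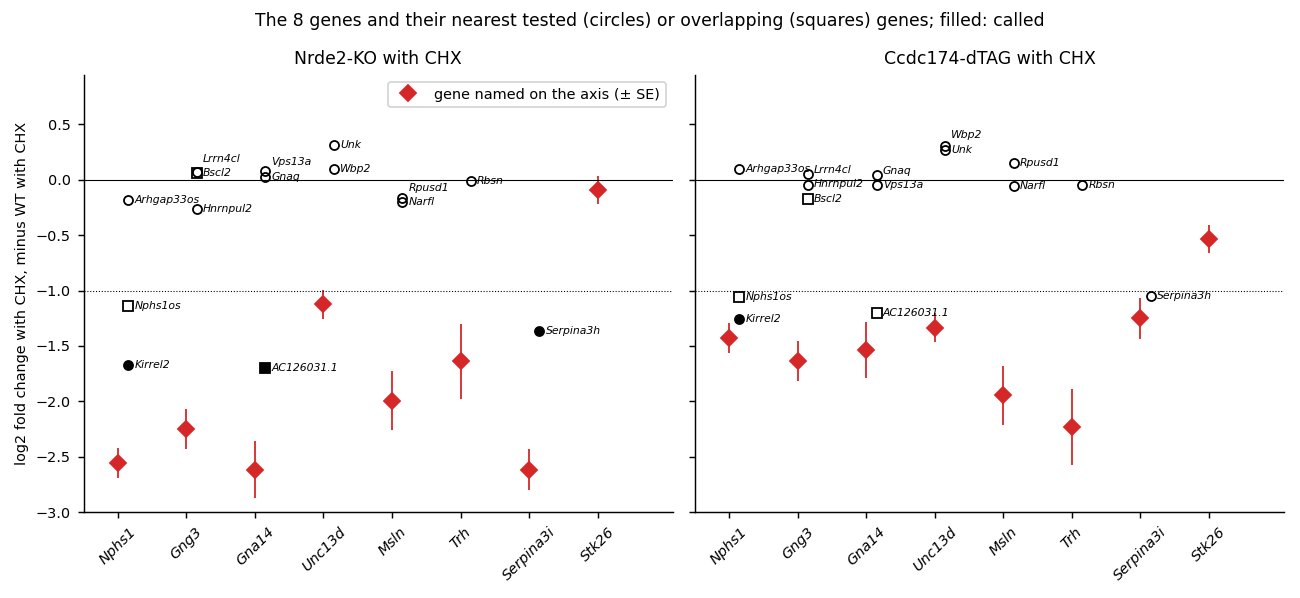
Log2 fold change with CHX of the 8 genes (red diamonds, with standard errors) and of their nearest tested (circles) or overlapping (squares) genes, filled where called, in Nrde2-KO (left) and Ccdc174-dTAG (right), with dotted lines at −1. Kirrel2 is called on both sides, AC126031.1 and Serpina3h in Nrde2-KO alone, and the other neighbours are not called.

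In the pathways of the members, single genes were called in the NRDE2 and CCDC174 comparisons. All pathway lists, here and in the paragraphs that follow, were chosen with earlier results of these data known. Their calls and adjusted p are therefore not independent evidence. Of 31 other G protein subunit genes 21 were tested without CHX, and none was called lower by limma in any NRDE2 or CCDC174 comparison. Over all tested genes 0.0604% to 2.8% were called lower there and 0.154% to 3.62% higher. Few calls are expected in lists of this size, so nothing is read from their number. *Gnal*, an alpha subunit of the Gs class, was called higher in both *Nrde2*-KO experiments (log2 fold changes 1.01 and 1.00), from 8.11 and 7.03 normalized CPM to 14.2 and 16.9 in the first. It was called higher in the truncation (1.11) and in *Nrde2*-KO with CHX (1.00) as well. These *Gnal* calls were lost without replicate 2 of the WT or of the knockout or truncated group, and the one with CHX also without *Nrde2*-KO CHX replicate 1. The median of the list was −0.11 in the first *Nrde2*-KO experiment, beside 0.00 over all genes. In *Mtrex*-KO, where 10.9% of all tested genes were called lower and 15.8% higher, 3 of the 21 fell, led by *Gnb4* (−1.91) and *Gngt2* (−1.40), and 4 rose, with *Gnal* (1.46) first. These shares are near those of all genes.

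Of 18 nephrin partners and slit diaphragm genes 15 were tested. *Kirrel2* and, chosen after its values were seen, *Podxl* fell in the first *Nrde2*-KO experiment, and *Kirrel2* alone in the second. Of all tested genes 1.98% and 2.42% were called lower in these experiments. *Podxl*, a sialomucin of podocytes that stem cells also express, went from 16.8 and 16.3 to 7.06 and 8.57 normalized CPM (log2 fold change −1.07, limma adjusted p = 3.5e-05), and its call was lost without *Nrde2*-KO replicate 1. The 5 podocyte markers, of which *Podxl* is one, summed to 16.8 to 18.1 in WT and 7.77 to 9.93 in *Nrde2*-KO, with 1 marker at 0 in each group. Most of this sum was *Podxl*, and of the 2 markers tested there only *Podxl* was called. The markers were not tested as a source of *Nphs1*. In *Mtrex*-KO 3 of the 15 rose, with *Magi2* (3.25) and *Fat1* (2.30) first, and 1 fell, beside 15.8% and 10.9% of all tested genes.

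Single secretion genes were called as well, again in lists chosen with earlier results known. Of 19 Munc13 and granule release genes 11 were tested. *Unc13a*, the neuronal relative of *Unc13d*, fell in both *Nrde2*-KO experiments, from 12.1 and 9.20 to 4.50 and 4.32 normalized CPM in the first (log2 fold change −1.21, limma adjusted p = 2.5e-05) and from 8.40 and 7.61 to 3.38 and 2.68 in the second (−1.34). No other gene of this list was called lower in RNA-seq of an NRDE2 or CCDC174 comparison, where 0.0604% to 2.42% of all tested genes were. *Rab27a*, the small GTPase that Munc13-4 binds on granules, had fewer footprints in *Nrde2*-KO (−1.43, limma adjusted p = 0.0060) and rose in *Mtrex*-KO (1.44), where *Sytl1* rose too (3.83). Of 8 genes that process or receive TRH 4 were tested. *Cpe*, carboxypeptidase E, which trims prohormones, fell in *Nrde2*-KO with CHX from 42.0 and 37.0 to 15.3 and 19.4 (−1.19, limma adjusted p = 2.0e-05), and *Pam*, the enzyme that amidates peptide hormones, rose in *Mtrex*-KO (1.96). Of 22 other serpins near *Serpina3i* only *Serpina3h* was high enough to be tested, and only with CHX. All 16 STRIPAK and related kinase genes were tested, and none was called by limma in an NRDE2 or CCDC174 comparison. With 0.0604% to 2.8% of all tested genes called lower there and 0.154% to 3.62% higher, nothing is read from this. In *Mtrex*-KO *Strn3* rose (1.03) and *Strip2* fell by 1.03 on the log2 scale.

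The members were related to each other in a limited way over the 14 RNA-seq group means, which share controls and batches. The log2 levels of *Gna14* and *Serpina3i* followed each other most closely (r = 0.94), both being high with CHX alone. *Gng3* went with *Msln* (r = 0.84) and *Unc13d* (r = 0.74), and *Nphs1* with *Unc13d* (r = 0.72). The lowest pair was *Gna14* and *Msln* (r = −0.33). Among 16107 genes the most alike by this measure were *Sept1* and *Dctn2* for *Gng3* (r = 0.98 and 0.96), *Usp43* and *Plk5* for *Unc13d* (0.92 each), *Ptprf* and *Copa* for *Msln* (0.97 each) and *Il17d* and *Ppp6r1* for *Trh* (0.93 and 0.89). *AU023762* was among the most alike for both *Gna14* (0.98, with *AC126031.1*) and *Serpina3i* (0.97, with *Gm35315*). Over 14 points and so many genes, high values of r are common, and they are given as a description.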

How the data were processed

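RNA-seq (rRNA-depleted total RNA, stranded, 28 libraries) and Ribo-seq (4 libraries) were analysed from the deposited gene tables. Per the study's methods and submitters' notes, reads were aligned with STAR 2.7.3a and uniquely mapped, correctly stranded reads counted by featureCounts. The authors deposited CPM, the reads of each gene scaled to the total of its library. Ids were named with GENCODE M21 (GRCm38), which held 55154 of 55335.

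Reads recovered from the CPM steps were whole for 100% of values within 0.1, and reads in genes were 72.1% to 92.1% of an RNA-seq library. No replicate pair differed by so little as sampling noise. CPM was divided by median-of-ratios factors, 0.25 was added, and log2 values were tested with limma 3.58.1 (R 4.3.3, trend, Benjamini-Hochberg) for genes with a mean CPM of at least 0.5, separately for 20 libraries without CHX, 8 with CHX and 4 of Ribo-seq. Calls needed an adjusted p under 0.01 and a log2 fold change beyond 1, the study's thresholds. Alternatives were other pseudocounts, filters and scalings, only the groups compared, a replicate block, leaving out each library, and edgeR 4.0.16 and DESeq2 1.42.0 on the recovered reads. limma was tested on simulated data.

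The 8 members and all gene lists were chosen with earlier results of these data known. Named besides them were the targeted genes, overlapping and nearest tested genes within 100 kb, the 2 genes most alike by Pearson r (not reported here for *Nphs1*), and up to 3 called genes per pathway list by size. 5′SSs came from the principal transcript. Cross-linking libraries were not analysed here.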

Additional observations from a re-analysis of the deposited data

Results flagged for a closer look

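The log2 fold change of *Msln* in *Mtrex*-KO was 1.59, higher in 2 of 2 knockout libraries than in both controls, while *Msln* was lower in 2 of 2 libraries of each *Nrde2*-KO experiment and of *Ccdc174-dTAG*. The effects thus run opposite ways, which is why it is given here. The difference between the comparisons was not tested, since the NRDE2 and CCDC174 comparisons were used to choose the gene.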

How the results depend on the processing

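Of 134 counts and *Mtrex*-KO values under alternatives, 129 were taken as kept. For *Mtrex*-KO values this meant the same direction and side of the threshold. For counts of members called lower it meant no move by over 1.5 times. Single members could therefore cross the threshold in a kept count, as with 4 in place of 5 in the first *Nrde2*-KO experiment. Of 670 member differences in the NRDE2 and CCDC174 comparisons, which are a description, 577 kept their sign and moved by less than their standard error. Where a member was called, 0 changed sign. Sign changes of members not called, such as *Stk26* in *Nrde2*-KO, were not counted as reversals. *Ccdc174-dTAG* with CHX gave 3 members called lower with no filter in place of 7. With CPM as deposited, which moved the median of all genes in *Mtrex*-KO to −0.38, *Nphs1* was called lower there (−1.13, 1 member called), *Gng3* (−0.064) and *Trh* (−0.29) changed sign, *Nphs1os* was at −0.0236, and the lower share of all calls went from 40.7% to 65.9% (in Ribo-seq from 43.6% to 24.5%). With each library left out in turn, members called lower were 0 to 1 in *Nrde2-D174R* in place of 2: 0 without WT replicate 2 or *Nrde2-D174R* replicate 2, and *Stk26* alone without either replicate 1. The lone sample is then assumed to vary like the other groups. In *Mtrex*-KO the same gave −0.94 to −0.58 for *Nphs1*, 0.00 to 0.65 for *Gng3*, −0.59 to 0.11 for *Unc13d* (0.11 without *Mtrex*-WT replicate 2), 1.31 to 1.87 for *Msln*, −0.22 to 0.43 for *Trh* (below 0 without *Mtrex*-WT replicate 1 or *Mtrex*-KO replicate 2) and −0.38 to −0.29 for *Stk26*. *Nphs1os* ran from −0.67 without *Nrde2*-KO replicate 2 to 0.037 without *Nrde2*-KO replicate 1 in the first experiment. Numbers of genes called lower moved by over 1.5 times in *Mtrex*-KO (1617, and 3094 with CPM as deposited), with 1 added in *Nrde2*Δ*200* (159 to 103), *Nrde2-D174R* (9 to 4), *Nrde2*-KO with CHX (268 to 166) and *Ccdc174-dTAG* with CHX (109 to 58, and 42 with no filter), and in *Nrde2-D174R* with no filter (3), DESeq2 (27) and only the groups compared (16). With 1 library left out they were 87 to 133 in *Nrde2*Δ*200*, 0 to 4 in *Nrde2-D174R* and 96 to 205 in *Ccdc174-dTAG* without CHX (172 with all libraries). The cause was not tested. The call of *Serpina3h* was lost with 1 added and with no filter, that of *AC126031.1* with 1 added, and that of *Kirrel2* in Ribo-seq with no filter and DESeq2. Same-numbered replicates had correlated deviations of −0.03 to 0.42, so the numbers were not taken to pair libraries, and a replicate block left each count of members called lower unchanged. Depth limits *Gna14* and *Serpina3i* without CHX and the footprints of all members but *Trh*.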
